A study of Drosophila melanogaster with 4 samples.

Results

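The vacuolar proton pump (V-ATPase) was represented by 22 array spots of 17 genes in a comparison of dsap18 mutant and rescued Drosophila melanogaster embryos. Members were chosen by name, as spots whose current gene symbol begins with Vha followed by a digit, M, AC or P, and which held a value on at least 1 array of each biological replicate. They came from 36 spots of 30 genes with such a name, in a table of 16416 spots. The symbol pattern leaves out VhaSFD, the H subunit, and ATP6AP2, an accessory protein, and both are treated beside the members. The mutant embryos carried dsap18 117, a null allele made by mobilizing a P element, over the deficiency Df(3R)sbd45, which removes the gene, in a w1118 background. The control embryos had the same allele, deficiency and background plus a dsap18-HA rescue transgene, so the null allele, the deficiency and any other gene it removes were common to all embryos measured. The labels do not name the promoter of the transgene, and they place it on chromosome 2 in 1 control channel of replicate 1 and on X for the other 3 arrays. RNA came from whole dechorionated embryos collected over 0 to 24 h at 25 °C, in 2 biological replicates from different extractions, each hybridised on 2 arrays with the Cy3 and Cy5 dyes swapped. The arrays of a replicate share their amplified RNA, so n is 2.

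The V-ATPase is a rotary pump that uses ATP to move protons into lysosomes, endosomes, secretory vesicles and, in epithelia such as the Malpighian tubule and parts of the midgut, across the plasma membrane. Its cytosolic V1 sector hydrolyses ATP and turns a central stalk, and its membrane V0 sector carries protons past a rotating ring of proteolipids. In Drosophila many subunits are encoded by small families of paralogs, several of which are known mainly from the adult testis, and the pump supports endocytosis, Notch and Wnt signalling and fluid secretion.

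The values are the authors' log ratios of the channels, taken as log2, and they are ratios only, so no level of any subunit can be given. The direction of the ratio is not stated in the sources used here. It is most likely mutant over control, since the design text speaks of a sample and a reference and names the mutant RNA first, and if it runs the other way every sign below turns. The 4 columns correlated positively across spots (Pearson r between 0.67 and 0.92), with the dye-swapped arrays of a replicate at 0.82 and 0.92, so no column was turned. Each array held 6537 to 7976 values with medians of 0.00 to 0.01. No spot was named for Bin1, the current symbol of dsap18, so the targeted gene could not serve as a check of the labels. Nothing says more about how separate the extractions were, so the spread between the replicates may be partly technical. In RNA from whole embryos, fewer cells of a type and less RNA per cell cannot be told apart.

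Of the 36 spots named for the pump, 20 had a value on all 4 arrays, 2 on 3 arrays and 14 on none. The share with no value, 38.9%, compares with 43.5% over all 13164 spots of 1 gene. In 9 of the 12 subunit families named in the table, exactly 1 gene had values. These were Vha55 for subunit B, Vha44 for C, Vha36-1 for D, Vha26 for E, Vha14-1 for F, Vha13 for G, Vha16-1 for c, VhaPPA1-1 for c'' and VhaAC39-1 for d. The families with several measured paralogs were a, with 4 of 5 genes, and e, with 3 of 4. Empty on every array were Vha36-2, Vha36-3, Vha14-2, Vha100-3, VhaM9.7-d, VhaAC39-2, VhaPPA1-2, VhaAC45RP and the proteolipid genes Vha16-2, Vha16-3, Vha16-4 and Vha16-5. Subunit A, the catalytic subunit, had no value at all, because Vha68-3 was empty and no spot was named for Vha68-1 or Vha68-2. An empty spot cannot be read as an absent transcript, since 1 of the 2 Vha44 spots was empty on all arrays while the other had 4 values. The rule by which the authors left spots empty is not given in the sources used here.

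None of the 17 V-ATPase genes differed between mutant and control embryos by the test. Their mean log2 ratios lay between -0.33 (VhaM9.7-a) and 0.24 (VhaM9.7-c), which as sizes is at most a 1.26-fold difference. The test was limma's moderated test of the 2 replicate means against 0, with Benjamini-Hochberg adjustment over 5752 genes and a threshold of 0.05, and 1327 genes (23.1%) passed it, of which 678 (11.8%) were negative and 649 (11.3%) positive. By limma, 0 members passed after adjustment and 1, VhaM9.7-a, had an unadjusted p under 0.05, where 35.1% of all genes did. The smallest limma adjusted p among the members was 0.122. All gene calls, those of the other lists included, rest on the variance borrowed across genes, since 0 of 5752 genes passed without moderation. By that unmoderated test 461 genes had an unadjusted p under 0.05, and 3 of the 17 members were among them. Members passed limma in 3 alternative fits, 4 of them with the 4 arrays taken as independent, where 42.8% of all genes passed, 1 with a dye term (33.5% of all genes) and 1 with the replicates scaled to the same spread (34.7%). The fit with a dye term also took the 4 arrays as independent.

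The limit of that statement is set by the error. The standard error of a member's mean was 0.16 on the log2 scale, nearly all of it borrowed from the other genes, and the smallest ratio among the 1327 genes that passed was 0.41 in size (1.33-fold). A p that misses the threshold does not show equal levels. The 95% intervals of 16 of the 17 members held 0, and the interval reaching farthest from 0, that of VhaM9.7-a, went to a 1.56-fold difference. The range spanned by the members' means held 59.3% of all genes. Among the sizes of all mean ratios the members stood between the 10.6th percentile (VhaM9.7-b) and the 66.6th (VhaM9.7-a), with a median size of 0.20 against 0.23 over all genes.

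**Figure D1:**
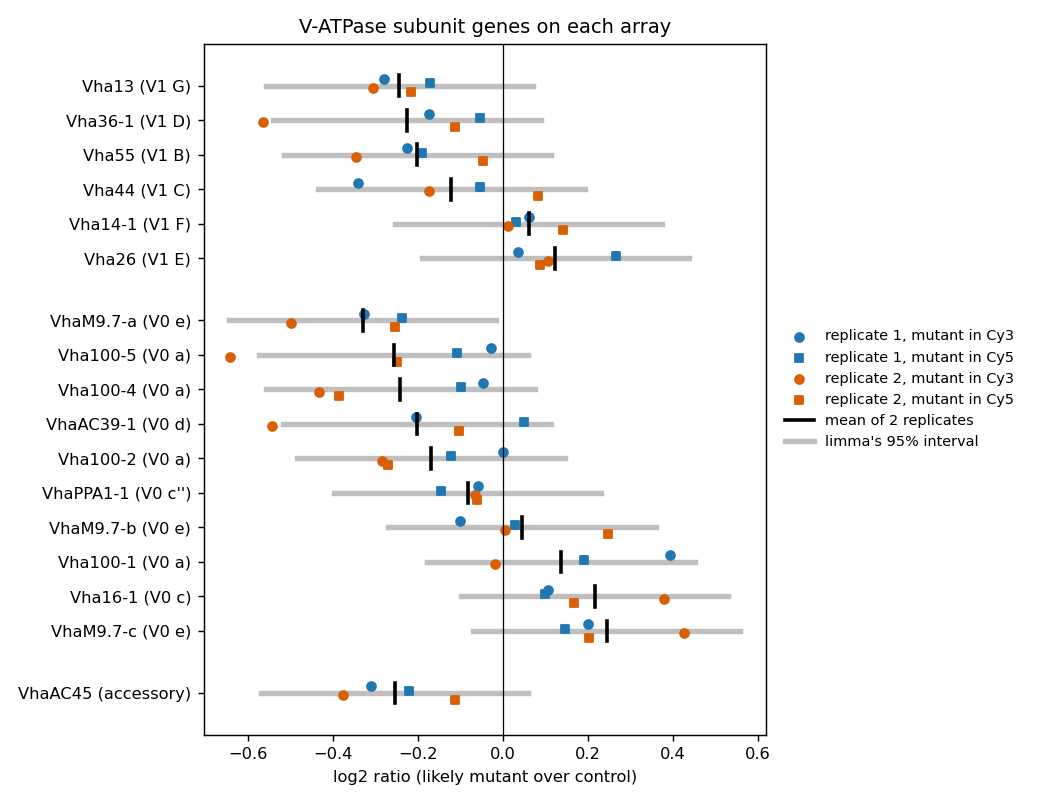
Log2 ratios of the 17 V-ATPase genes (x axis, likely mutant over control, no unit) on each of the 4 arrays, with the mean of the 2 replicates as a black bar and limma's 95% interval in grey; rows are grouped as V1, V0 and accessory, and array values of genes with several spots are means over spots. Of the grey intervals, the one of VhaM9.7-a alone lies wholly on one side of 0.

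The V1 sector had 6 measured genes, of which 4 had a negative mean ratio. Vha13, which encodes subunit G of the peripheral stalks that hold the catalytic head still, gave -0.28 and -0.17 in replicate 1 and -0.31 and -0.22 in replicate 2, in each pair with the mutant in Cy3 before the mutant in Cy5. All 4 values were negative and close together, with a mean of -0.24 ± 0.03 (SD, n = 2; limma adjusted p = 0.268). Vha55 encodes subunit B, the non-catalytic partner of subunit A in the ATP-hydrolysing head. Its 2 spots averaged -0.23 and -0.19 in replicate 1 and -0.35 and -0.05 in replicate 2. The replicate means of Vha55 were nearly equal, giving -0.20 ± 0.01, while the swapped arrays of replicate 2 were far apart. Taken singly the 2 spots had means of -0.23 and -0.17, so the spots did not disagree in sign.

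Vha36-1, for subunit D of the rotating central stalk, had values of -0.17, -0.05, -0.56 and -0.11 in the same array order. All were negative, and the replicate 2 array with the mutant in Cy3 was the lowest by a wide margin. The mean of Vha36-1 was -0.23 ± 0.16, with a limma adjusted p = 0.313. Vha44, for subunit C, which joins the stalks to the membrane sector and comes off when the pump is dismantled, gave -0.34, -0.05, -0.17 and 0.08, with a mean of -0.12 ± 0.11. Its 4 arrays did not share a sign, and within each replicate the array with the mutant in Cy3 was the lower.

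The other V1 genes had positive ratios. Vha26, for subunit E of the peripheral stalks, was at 0.04, 0.27, 0.11 and 0.09, with a mean of 0.12 ± 0.04. Vha14-1, for subunit F of the central stalk, was at 0.06, 0.03, 0.01 and 0.14, with a mean of 0.06 ± 0.02. Both were positive on all 4 arrays, although subunit E lies beside G in the same stalks and F beside D in the rotor. These differences between subunits of 1 stalk were not tested.

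VhaSFD, the H subunit that the symbol pattern leaves out, completes the V1 sector and is known to hold released V1 inactive. It had a lower ratio than any V1 member, at -0.34, -0.24, -0.49 and -0.35, all negative. The mean was -0.35 ± 0.09, with a 95% interval from -0.67 to -0.04 and a limma adjusted p = 0.0935, so it did not pass either.

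The V0 sector had 10 measured genes, 6 below 0 and 4 above it in the mean. Vha16-1 encodes the main proteolipid, subunit c, whose copies form the proton-carrying ring. With 3 spots it was the most densely sampled member, and the spots averaged 0.11 and 0.10 in replicate 1 and 0.38 and 0.17 in replicate 2. The arrays were all positive in the average over spots, and single spots had means of 0.11, 0.31 and 0.23. The mean of Vha16-1 was 0.22 ± 0.16 (SD, n = 2; limma adjusted p = 0.339), and 1 of its spots had no value on the replicate 2 array with the mutant in Cy5. VhaPPA1-1, for c'', the second kind of proteolipid in the ring, lay on the other side of 0, at -0.06, -0.15, -0.07 and -0.06, with a mean of -0.08 ± 0.03.

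VhaAC39-1 encodes subunit d, which seats the central stalk on the ring. Its values were -0.21, 0.05, -0.54 and -0.10, with a mean of -0.20 ± 0.17. The arrays with the mutant in Cy3 were the 2 lowest, and 1 of the others was positive. The gap between dye orientations, -0.35, exceeded the mean ratio itself.

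Subunit a forms the channels through which protons enter and leave the ring, and its paralogs are known to direct the pump to different membranes. Vha100-1, the paralog known from neurons and synaptic vesicles, was at 0.39 and 0.19 in replicate 1 and at -0.02 on the single replicate 2 array with a value. Its mean of 0.14 ± 0.22 therefore rests on 3 arrays, and the replicates differed in sign. Vha100-2, the paralog known for broad expression, averaged 0.00 and -0.12 in replicate 1 and -0.28 and -0.27 in replicate 2 over its 2 spots, with a mean of -0.17 ± 0.15. Vha100-4 and Vha100-5 were near 0 in replicate 1 and lower in replicate 2. Vha100-4, known for expression in the midgut, gave -0.05, -0.10, -0.43 and -0.39 with a mean of -0.24 ± 0.24, and Vha100-5 gave -0.03, -0.11, -0.64 and -0.25 with a mean of -0.26 ± 0.27. For both genes the gap between replicates was larger than the mean. Vha100-4 and Vha100-2 are direct neighbours on chromosome arm 3R in the RefSeq gene table.

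Among all 6 pairs of measured subunit a genes, the 3 pairs with Vha100-1 had the widest gaps. Vha100-1 stood above Vha100-2 by 0.35 in replicate 1 and 0.26 in replicate 2, above Vha100-4 by 0.36 and 0.39, and above Vha100-5 by 0.36 and 0.43, on 3 of 3 arrays in each pair. In replicate 2 these differences set the single Vha100-1 array against the mean of both arrays of the other gene. On the shared array, with the mutant in Cy3, they were 0.27, 0.41 and 0.62. Vha100-2, Vha100-4 and Vha100-5 differed by at most 0.0128 in replicate 1 and 0.17 in replicate 2. The values of Vha100-2 are averages of 2 spots that disagreed. Singly its spots were at -0.15 and 0.03 in replicate 1 and at -0.11 and -0.44 in replicate 2, so its closeness to the other genes rests on the averaging. The pairs were compared after their values were seen, and none of these differences was tested.

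Subunit e is a very small membrane protein of the V0 sector, and its measured paralogs held both ends of the members' range. VhaM9.7-a gave -0.33 and -0.24 in replicate 1 and -0.50 and -0.25 in replicate 2. All were negative, and the mean was -0.33 ± 0.07, with a limma unadjusted p = 0.0404 and adjusted p = 0.122. VhaM9.7-c gave 0.20, 0.15, 0.43 and 0.20, all positive, with a mean of 0.24 ± 0.10 and a limma adjusted p = 0.266. In the mean VhaM9.7-b lay between them, at 0.04 ± 0.12, with array values of -0.10, 0.03, 0.01 and 0.25 and replicates of different sign. It was below VhaM9.7-c on 3 of 4 arrays, by 0.21 in the mean of replicate 1 and 0.19 in that of replicate 2. VhaM9.7-c exceeded VhaM9.7-a on 4 of 4 arrays, by 0.46 in replicate 1 and 0.69 in replicate 2, and VhaM9.7-b exceeded VhaM9.7-a on 4 of 4 arrays, by 0.25 and 0.50. This contrast within a subunit was seen in the values first and was not tested.

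VhaAC45, the accessory protein that binds the V0 sector and is known to help guide the pump through the secretory pathway, had 2 spots that averaged -0.31 and -0.22 in replicate 1 and -0.37 and -0.11 in replicate 2. Its mean was -0.25 ± 0.02 (SD, n = 2; limma adjusted p = 0.245), and the spots singly were at -0.30 and -0.21. ATP6AP2, the other accessory protein, outside the symbol pattern, was at -0.16, -0.05, -0.47 and -0.14, with a mean of -0.21 ± 0.14 and a limma adjusted p = 0.366. Both accessory genes were negative on all 4 arrays.

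The sectors did not separate. The median of the mean log2 ratios was -0.16 over the 6 V1 genes and -0.13 over the 10 V0 genes, against 0.02 over all 5752 genes. The V1 median minus the V0 median was -0.09 in replicate 1 and 0.05 in replicate 2, so its sign differed between replicates. No test of this difference was made. V1 genes spanned -0.24 to 0.12 and V0 genes -0.33 to 0.24, so the V1 range lay inside that of V0. The sectors also differed in how closely the replicates lay together, with a median gap between replicate means of 0.05 for V1 and 0.22 for V0, against 0.22 over all genes. For 1 of 6 V1 genes and 7 of 10 V0 genes the gap exceeded the size of the mean, against 47.3% of all genes.

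Of the 17 members, 12 kept 1 sign on every array with a value (63.6% of all genes did), 8 of them negative (30.5% of all genes) and 4 positive (33.1%). In both replicates the ratio was negative for 11 members, or 64.7%, against 38.1% of all genes, positive for 4, and of different sign for 2, namely Vha100-1 and VhaM9.7-b. The members' medians were -0.07 in replicate 1 and -0.20 in replicate 2, against 0.00 and 0.02 over all genes. The SD over members was 0.16 in replicate 1 and 0.25 in replicate 2, or 1.51 times as wide, and over all genes it was 0.28 and 0.48, or 1.75 times as wide. Genes are not independent replicates, and these counts describe the 17 genes without a test.

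**Figure D2:**
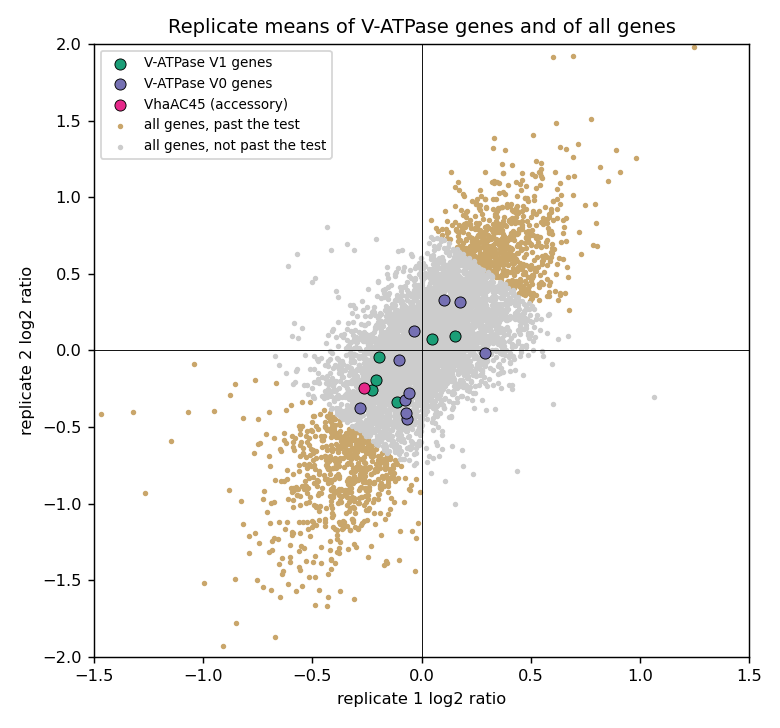
Mean log2 ratio in replicate 1 (x axis) and in replicate 2 (y axis) for V1, V0 and accessory V-ATPase genes (large points) and for all genes (small points, coloured by whether they passed limma's test at an adjusted p of 0.05); 9 genes lie outside the axes. The 17 members all lie among the genes that did not pass, with 11 of them in the lower left part of the plot where both replicates are negative.

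The dye orientation moved with the V1 values. All 6 V1 genes had a lower mean ratio on the arrays with the mutant in Cy3 than on those with the mutant in Cy5, as had VhaAC45 and 4 of the 9 V0 genes with values on every array. Over all genes with values on every array this share was 52.4%. Within single replicates the order was reversed for Vha14-1 in replicate 1, by 0.03, and for Vha26 in replicate 2, by 0.02. The median over V1 genes was -0.27 on the arrays with the mutant in Cy3 and -0.034 on those with the mutant in Cy5. The differences between orientations were largest for VhaAC39-1 (-0.35), Vha36-1 (-0.29) and Vha44 (-0.27). A limma fit with a dye term took the 4 arrays as independent and left out which arrays belong to 1 replicate. For that term 0 of 17 members and 0 of 5609 genes passed by limma, and the smallest unadjusted p among the members was 0.109. The difference between replicates stays in the error of this fit, so the count does not show that a dye effect was absent. In 4 members (23.5%), the 3 named and VhaM9.7-b, the dye difference exceeded the mean ratio, as it did in 27.7% of the 5609 genes. The part of the dye in the V1 values was not tested further.

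**Figure D3:**
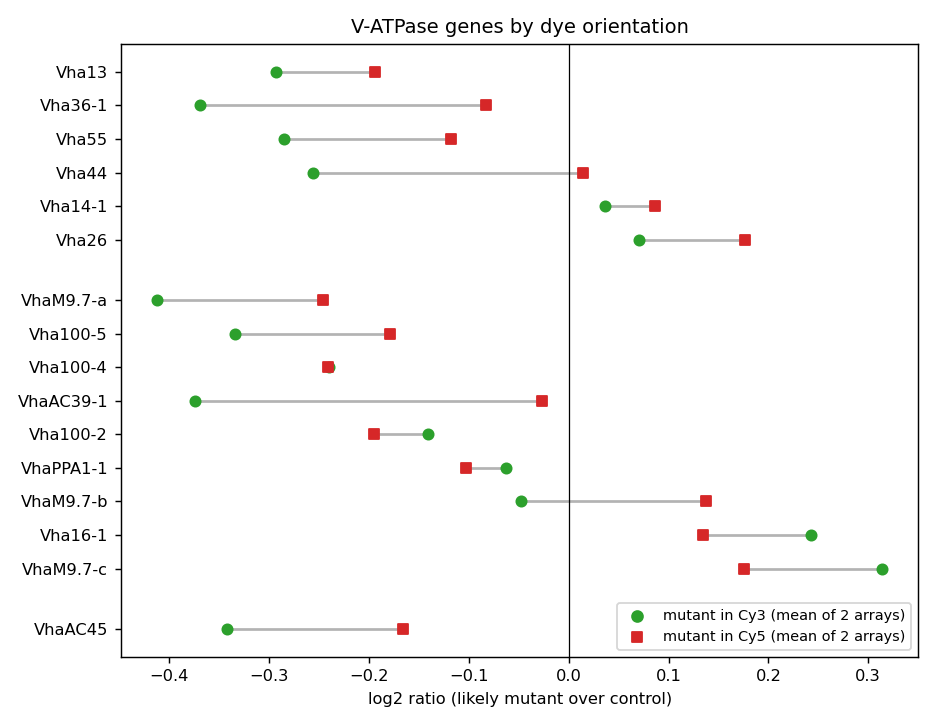
Log2 ratio (x axis) of 16 V-ATPase genes on arrays with the mutant in Cy3 (green circles, mean of 2 arrays) and in Cy5 (red squares, mean of 2 arrays); rows are grouped as V1, V0 and accessory, and Vha100-1 is left out because an array had no value. In every V1 row the circle lies left of the square, by up to 0.29 in Vha36-1.

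Genes listed by name for functions related to the pump were followed, each list read by its count beside the 23.1% of all genes that passed. Of 22 measured lysosomal and endosomal genes 9 passed, 7 of them negative and 2 positive, and the median was -0.20. The negative ones were led by Npc2g (-0.74 ± 0.16) and Npc2b (-0.71 ± 0.55), of a family of sterol-binding proteins, and by the lysosomal mannosidase gene LManV (-0.68 ± 0.39). Npc2b in replicate 1 and LManV in replicate 2 each rest on 1 array, with the mutant in Cy3. The positive ones were the aspartic protease gene cathD (0.48 ± 0.22) and Npc2a (0.45 ± 0.33). These 9 genes, listed by name as lysosomal or endosomal, lay on both sides of 0. Where their products act was not examined here. Lamp1, for a lysosomal membrane protein, was at 0.38 ± 0.17 and did not pass, and Arl8, which positions lysosomes, was at 0.32 ± 0.24.

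Among genes listed for ion transport in epithelia, where the V-ATPase can energize secondary transport, 5 of 13 passed, all with a negative ratio. The median was -0.21. The list was set by gene name, and RNA from whole embryos does not show in which tissue these genes were transcribed. The cotransporter gene Ncc69 (-0.69 ± 0.51), the carbonic anhydrase gene CAH2 (-0.66 ± 0.23) and nrv2 (-0.58 ± 0.26), which encodes a beta subunit of the sodium pump, were the lowest. The Na+/H+ exchanger genes Nhe1, Nhe2 and Nhe3 were at -0.10, 0.12 and 0.12. The list for TORC1 at the lysosome had 7 measured genes, which were Lamtor1 to Lamtor5, gig and Tsc1. Of these 1 passed, the Ragulator gene Lamtor1 at 0.52 ± 0.35. The list's median was 0.19, and it pools the Lamtor genes with gig (0.22) and Tsc1 (0.33), which are not Ragulator genes.

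The mitochondrial ATP synthase, the related rotary machine that runs in the other direction, had 13 measured genes. Of these 1 passed, ATPsynbeta at -0.50 ± 0.34, and the median was -0.06. In replicate 1 ATPsynbeta had a value on 1 array alone, with the mutant in Cy5. Of genes for assembly and control of the V-ATPase beside VhaSFD, Rbcn-3A, Rbcn-3B and Mitf were not among the genes fitted. No list was tested against another.

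Markers of tissues rich in the pump, and of the trachea, were sparsely measured. Of 8 Malpighian tubule markers 2 had values, tsh (-0.38 ± 0.37) and Irk2 (-0.21 ± 0.09), and neither passed. In RNA from whole embryos neither can be taken to report on the tubule alone. Of 5 markers of midgut and its copper cells 3 had values, of which srp, a GATA factor gene that also acts in fat body and blood cells, passed at -0.62 ± 0.42, while dve was at -0.38 ± 0.25 and Ptx1 at -0.30 ± 0.41. Of 2 tracheal markers none had a value in both replicates. All 5 measured markers lay on the negative side, as did 11 of the 17 V-ATPase genes and 48.5% of all genes. Of these markers only srp passed, and Irk2 is also counted among the ion transport genes. The part of the markers in the members' values was not tested.

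**Figure D4:**
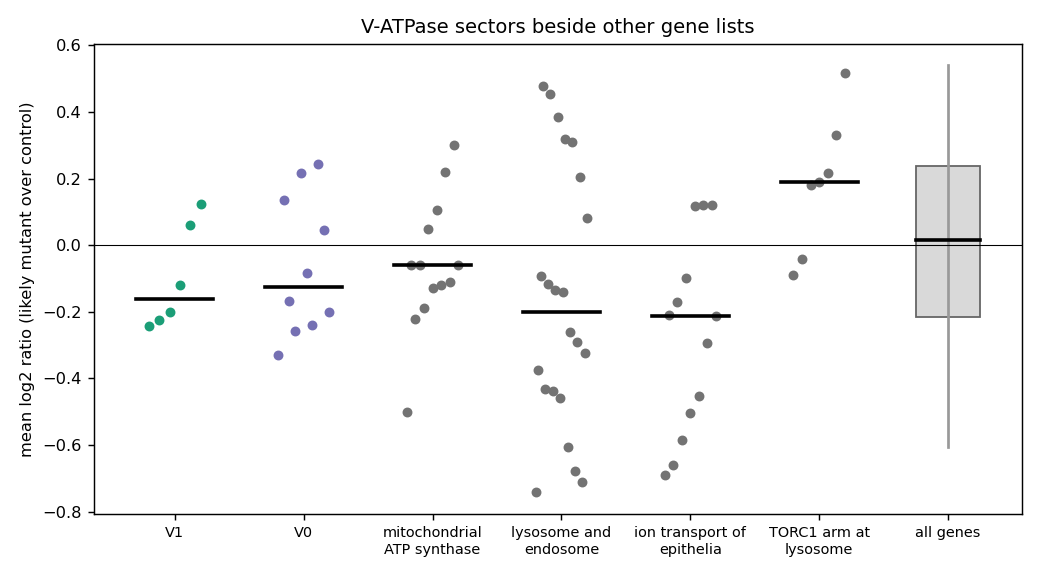
Mean log2 ratio (y axis) of each measured gene of the V1 and V0 sectors and of 4 lists of functionally related genes, with the list median as a black line; for all genes the box spans the 25th to 75th percentile (-0.22 to 0.24) and the line the 5th to 95th (-0.61 to 0.54). V-ATPase genes stay between -0.33 and 0.24, while lysosomal and endosomal genes reach from -0.74 to 0.48.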

How the data were processed

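From 1.5 µg of total RNA, aRNA was amplified and dye-labelled by an amino-allyl method for 4 two-colour arrays, per the labels' protocols. The deposited values are log ratios between channels, 1 per spot and array, made by the authors and read here as log2, with limma named in the submitters' processing notes; no source used here gives the base, background correction, normalization or direction. Of 16416 spots 13164 had 1 gene symbol in the platform annotation, 101 several and 3151 none, and symbols were updated by RefSeq Release 6 gene ID (12533 spots) or accession (120), while 511 kept the annotation's symbol. Each spot's arrays with a value were averaged per replicate, spots of a gene were averaged, and limma 3.58.1 (R 4.3.3) gave a two-sided moderated test of the 2 replicate means against 0 (prior degrees of freedom 81.6, prior SD 0.225). Genes needed a value on at least 1 array of each replicate, and 5752 were fitted. Errors are SDs of the 2 replicate means. The number of arrays limits the precision. The test was also run on simulated data with independent errors of equal spread in both replicates. In the real data replicate 2 was 1.75 times as wide as replicate 1 over all genes. That run therefore does not show how well the test is calibrated here.

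Members and lists were chosen with earlier results of these data known. All members are named. Of the other lists, at most 3 genes per list and direction were named by rule (past the test, with 1 sign on every array, largest in size), and the remaining ones were picked once values were known. The list symbol Tor was not matched. Alternatives were the filter on arrays, single spots, the replicate as a random block, independent arrays, a dye term, robust or no moderation, centring, scaling, each replicate and each dye orientation alone. Promoter motifs and sequences were not analysed here.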

Additional observations from a re-analysis of the deposited data

Results flagged for a closer look

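In VhaPPA1-1, 1 array stood apart from the other 3. The replicate 1 array with the mutant in Cy5 was at -0.15, while the others lay between -0.07 and -0.06, so that the gap made up 0.924 of the whole range, above the 95% critical value for 4 values. The range was small and the 4 arrays are 2 pairs of technical repeats. Chance gives such a gap in about 1 of 20 groups, and 16 members with 4 values were examined.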

How the results depend on the processing

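Each of the 17 mean ratios kept its sign in the 9 alternatives with a test in which it was fitted, but not in those without a test. Vha100-1 was at -0.02 without replicate 1, VhaM9.7-b at -0.04 without replicate 2 and -0.05 with the mutant in Cy3 alone, and Vha44 at 0.01 with the mutant in Cy5 alone. On arrays with the mutant in Cy3 alone, and in Cy5 alone, the same 8 members moved by more than their SD. For a gene with every spot on all 4 arrays the mean lies midway between the orientations, so the second count follows from the first. The SD is that of 2 replicate means and is small where these lie close together, as in Vha55 (0.009). The count of V-ATPase genes past the test, 0, moved to 4 with the 4 arrays taken as independent (VhaM9.7-a, Vha13, VhaAC45 and VhaM9.7-c, where 42.8% of all genes passed), to 1 with a dye term (33.5%) and to 1 with the replicates scaled to the same SD (34.7%), both times VhaM9.7-a. The dye term was likewise fitted with the arrays taken as independent. The count over all genes, 1327, moved to 2460 with independent arrays, 1997 with scaled replicates and 0 without moderation. In the unmoderated test 461 genes, 3 of the 17 members among them, had an unadjusted p under 0.05. The V1 median, -0.16, was -0.27 on arrays with the mutant in Cy3, -0.034 on those with the mutant in Cy5 and -0.20 with VhaSFD included, a choice made after seeing the data. The V0 median, -0.13, was -0.18 with VhaAC45 and ATP6AP2 included, likewise with the values known. Over genes on all 4 arrays the V0 median was -0.17 and the V1 median -0.16. Without replicate 1 and without replicate 2 the V1 median was -0.12 and -0.16, and the V0 median was -0.17 and -0.06. Pairing is built into the test, because each ratio sets both genotypes against each other on 1 array. Signal over background is unknown here, so dim spots could not be told from bright ones.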
